A study of Homo sapiens with 4 samples.

Results

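Transcripts of 8 gut lineage transcription factors, namely FOXA1, FOXA2, FOXA3, HNF4A, HNF4G, GATA6, CDX1 and CDX2, were examined in MKN28 cells. The genes were taken by name from a table of 23362 genes, and each symbol matched 1 entry. MKN28 is a human gastric adenocarcinoma cell line, which cell line registries list as a misidentified derivative of another gastric cancer line. The cells carried a retroviral, doxycycline-dependent tet-on construct of luciferase (Luc, the control), KIAA1324 WT, KIAA1324 3NQ or KIAA1324 ΔTM. In 3NQ, glutamine replaces asparagine at the putative N-glycosylation sites of KIAA1324, and ΔTM lacks its transmembrane domain. The lines were kept as drug-selected populations, and a doxycycline dose or time for the sequenced cultures is not given in the sources used here. Poly(A) RNA was sequenced as 1 library for each of the 4 groups, so that the spread between replicates is unknown and no test was made. The levels are FPKM, fragment counts scaled by gene length and by the mapped fragments of the library, so that different genes can be set side by side within a library.

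KIAA1324 itself was listed at an FPKM of 2.86 in Luc, 11185 with WT, 8197 with 3NQ and 0 in the ΔTM-labelled library. The last value goes against the label of that library, which is therefore called the ΔTM-labelled library. Of the 23362 genes, 11297 to 11406 reached an FPKM of 1, depending on the library, and 6624 to 6903 were listed at 0. A listed 0 can be a failed estimate. The table holds no read counts, and the absolute depth is unknown. However, the lowest values lay on steps. Of 1357 genes between 0 and 0.1 FPKM in both Luc and 3NQ, 286 had a log2 ratio within 0.1 of the most frequent one, −0.19. If that ratio is the worth of 1 fragment, the depth relative to Luc was 1.14 in 3NQ, 0.979 in WT and 1.03 in the ΔTM-labelled library.

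The FOXA proteins are forkhead factors that open closed chromatin and prepare endoderm for gut, liver and pancreas programs. HNF4A and HNF4G are nuclear receptors that maintain the absorptive program of intestinal and hepatic epithelium, and GATA6 is a zinc finger factor of early endoderm and of stomach and intestine. CDX1 and CDX2 are caudal homeobox factors that specify intestine, and their appearance in the stomach is a hallmark of intestinal metaplasia. FOXA is also among the factors of a regulatory network that the study inferred from target genes, which raises the question of whether the transcripts of the FOXA genes themselves differed.

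The 8 factors were low in every library. Their FPKM summed to 6.02 in Luc, 8.10 with WT, 6.11 with 3NQ and 5.33 in the ΔTM-labelled library. FOXA1 alone was at an FPKM of at least 1 in all 4 libraries and made up 37.2% to 51.1% of the sum. CDX2 and GATA6 were at or above 1 in 2 libraries each and HNF4G in 1, whereas FOXA2, FOXA3, HNF4A and CDX1 stayed below 1 throughout. In the control cells the order of the levels was FOXA1, CDX2, GATA6, HNF4G, FOXA3, FOXA2, HNF4A and CDX1. With 1 library per group, it cannot be said which neighbours in this order differ beyond the spread between replicates.

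**Figure D1:**
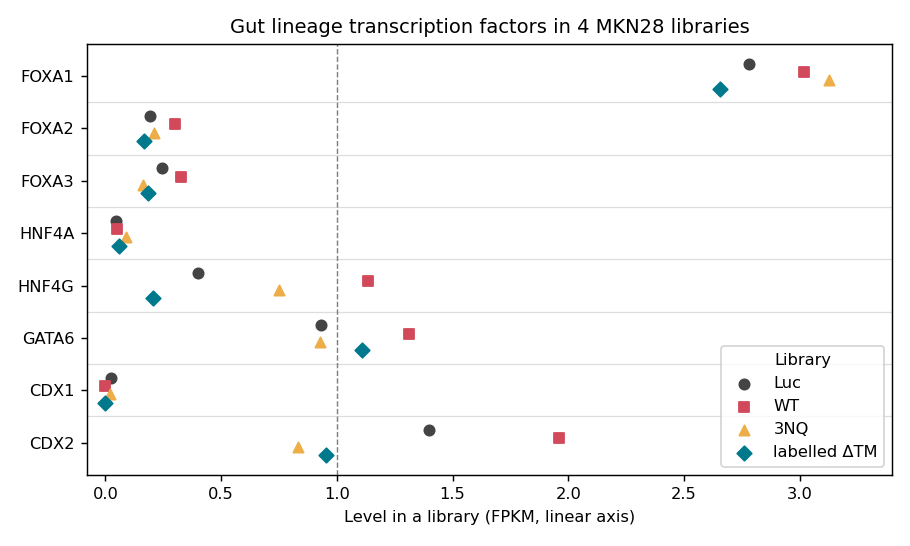
FPKM (x axis, linear) of each of the 8 factors (y axis) in the 4 MKN28 libraries, with 1 symbol per library and a dashed line at an FPKM of 1. FOXA1 lies between 2.66 and 3.12 in all libraries, HNF4G spreads from 0.204 to 1.13, and 4 factors stay below 1 in every library.

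Among the forkhead members, FOXA1 (ENSG00000129514, GRCh37 chromosome 14 from 38059189 to 38069245, minus strand) had the highest level. Its FPKM was 2.78 in Luc, 3.02 with WT, 3.12 with 3NQ and 2.66 in the ΔTM-labelled library. The highest library was 1.18 times the lowest, and in Luc the gene ranked 10089 of all entries. FOXA2 (ENSG00000125798, chromosome 20 from 22561643 to 22566093, minus strand) had an FPKM of 0.191 in Luc, 0.299 with WT, 0.208 with 3NQ and 0.165 in the ΔTM-labelled library. FOXA3 (ENSG00000170608, chromosome 19 from 46367247 to 46377055, plus strand) had an FPKM of 0.245, 0.327, 0.161 and 0.183 in the same order. Both paralogs were highest in WT, at levels where few fragments decide a value. FOXA1 thus accounted for 82.8% to 89.4% of the summed FPKM of the FOXA genes. TTC6, a protein-coding gene on the opposite strand, overlaps the span of FOXA1 by 4412 bp in the GENCODE annotation. Its FPKM was 0.0119 in Luc, 0.628 with WT, 0.0433 with 3NQ and 0.181 in the ΔTM-labelled library. No strand setting is given in the sources used here, so that reads in the shared stretch cannot be told apart.

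The nuclear receptor HNF4G (ENSG00000164749, chromosome 8 from 76320149 to 76479078, plus strand) varied most of the 8 on the log2(FPKM + 1) scale. Its FPKM was 0.399 in Luc, 1.13 with WT, 0.750 with 3NQ and 0.204 in the ΔTM-labelled library. WT was thus the only library above 1, and both the WT and the 3NQ library lay above Luc and the ΔTM-labelled library. The ratio of the FPKM values in WT and Luc was 2.84, and that of WT and the ΔTM-labelled library was 5.56. HNF4G passed the filter on low values only through the WT library, where it was highest. Its order of levels, WT, 3NQ, Luc and the ΔTM-labelled library, was also that of KIAA1324. The last place of KIAA1324 rests on a listed 0 that goes against the label of that library. For HNF4G, the first place of WT is not independent of the filter. The order was found in 1011 of the 11769 genes that reached an FPKM of 1 anywhere (8.59%). FOXA2, which was below 1 in every library, had the same order. HNF4A (ENSG00000101076, chromosome 20 from 42984340 to 43060030, plus strand) had an FPKM of 0.0475 in Luc, 0.0483 with WT, 0.0895 with 3NQ and 0.0572 in the ΔTM-labelled library, so that HNF4G supplied 78.1% to 95.9% of the summed HNF4 FPKM. Antisense and other non-coding genes overlap HNF4A, among them HNF4A-AS1 over 22961 bp. The authors masked non-coding regions.

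The zinc finger factor GATA6 (ENSG00000141448, chromosome 18 from 19749404 to 19782491, plus strand) had an FPKM of 0.932 in Luc, 1.31 with WT, 0.928 with 3NQ and 1.11 in the ΔTM-labelled library. Luc and 3NQ were nearly equal, WT was the highest library, and the highest was 1.42 times the lowest.

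Of the caudal factors, CDX2 (ENSG00000165556, chromosome 13 from 28536274 to 28545276, minus strand) had an FPKM of 1.40 in Luc, 1.96 with WT, 0.832 with 3NQ and 0.953 in the ΔTM-labelled library. The 3NQ and the ΔTM-labelled library lay close together below Luc, and WT lay above it. The ratio of the FPKM values was 2.36 between WT and 3NQ and 2.06 between WT and the ΔTM-labelled library. CDX1 (ENSG00000113722, chromosome 5 from 149546358 to 149564120, plus strand) had an FPKM of 0.0242 in Luc and 0.0201 in 3NQ and was listed at 0 in WT and the ΔTM-labelled library.

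Promoters of 5 of the 8 factors were found in a RefSeq table on GRCh38.p14, each 250 bases before to 50 bases after an annotated start. Both strands were searched for the letters TGTTTAC, which forkhead proteins recognise. The zinc fingers of the GATA family recognise AGATAA, and the caudal homeodomains recognise TTTATNG. The nuclear receptors HNF4A and HNF4G recognise CAAAGTCCA, and the general transcription machinery recognises the TATA box, searched for here as TATAAA. The windows with a match are shown because they hold the letters that other factors of the list can recognise, with matches in capitals and each window written 5′ to 3′ on the strand of its gene. CDX2 is on the minus strand at chr13:27969266-27969565, HNF4A on the plus strand at chr20:44355449-44355748 and FOXA3 on the plus strand at chr19:45864076-45864375.
CDX2: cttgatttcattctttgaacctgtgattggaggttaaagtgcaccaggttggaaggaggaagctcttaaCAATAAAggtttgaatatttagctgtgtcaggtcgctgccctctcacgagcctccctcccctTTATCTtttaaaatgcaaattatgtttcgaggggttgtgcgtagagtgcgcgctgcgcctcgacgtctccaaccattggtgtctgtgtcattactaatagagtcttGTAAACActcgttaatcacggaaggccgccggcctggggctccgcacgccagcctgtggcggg
HNF4A: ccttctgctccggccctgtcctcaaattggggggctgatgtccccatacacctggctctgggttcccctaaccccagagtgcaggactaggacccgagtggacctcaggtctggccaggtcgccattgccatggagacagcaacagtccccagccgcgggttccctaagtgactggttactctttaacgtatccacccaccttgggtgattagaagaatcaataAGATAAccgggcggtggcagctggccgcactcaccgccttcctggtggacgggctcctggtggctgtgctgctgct
FOXA3: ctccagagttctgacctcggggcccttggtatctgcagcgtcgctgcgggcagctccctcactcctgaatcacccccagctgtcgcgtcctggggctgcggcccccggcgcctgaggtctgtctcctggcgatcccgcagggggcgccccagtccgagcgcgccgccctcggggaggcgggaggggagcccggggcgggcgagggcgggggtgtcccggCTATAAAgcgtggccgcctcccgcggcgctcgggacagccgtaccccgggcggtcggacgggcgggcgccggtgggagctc
The CDX2 window held a caudal, a GATA and a forkhead match, whose first letters lay 181, 119 and 13 bases before the start. The HNF4A window, at 1 of the 2 starts that the table lists for this gene, held a GATA match 26 bases before the start. In FOXA3, a caudal match 31 bases before the start overlaps a TATA match. Over 27305 promoters of the same length, 3.41% held the forkhead letters, 10.5% the GATA, 10.1% the caudal, and 0.359% the HNF4 letters, and 3264 of them held the TATA letters. A match describes the letters and is not a binding site, and no binding was measured here.

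Differences between libraries were taken as log2 ratios of FPKM + 1, which understates the change of genes as low as these. A gene was tested where its FPKM was at least 1 in at least 1 library, which 11769 genes and 4 of the 8 factors (FOXA1, HNF4G, GATA6 and CDX2) met, and called where the ratio reached 1.5-fold. HNF4G was called higher in WT than in Luc, with a log2 ratio of 0.61. It was tested only because of its WT level, so that this call is not independent of the filter. It was the only 1 of the 4 tested factors, whereas 6.7% of all tested genes were called in either direction and 3.36% as higher. Of the 1275 tested genes with a mean FPKM under 2, a limit set after values were seen, 6.04% were called higher in WT. The log2 ratio to Luc in WT was 0.30 for CDX2, 0.26 for GATA6 and 0.09 for FOXA1, all below the threshold. With a pseudocount of 5, the log2 ratio of HNF4G was 0.18 and the call was lost.

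None of the 4 tested factors was called in 3NQ or in the ΔTM-labelled library against Luc, where 4.34% and 3.11% of all tested genes were called in either direction. In 3NQ, the log2 ratio was 0.32 for HNF4G, −0.39 for CDX2, 0.13 for FOXA1 and −0.0031 for GATA6. The ratio of GATA6 had the opposite sign when the libraries were rescaled by upper quartile or by median of ratios. In the ΔTM-labelled library, it was −0.22 for HNF4G, −0.30 for CDX2, 0.13 for GATA6 and −0.049 for FOXA1. With a pseudocount of 0.1, HNF4G (0.77) and CDX2 (−0.68) passed the threshold in 3NQ, and HNF4G (−0.71) passed it in the ΔTM-labelled library, as did 8.16% and 6.12% of all tested genes. The comparisons to Luc share 1 control library, and their values are therefore not independent.

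Among the libraries other than Luc, CDX2 was called higher in WT than in 3NQ, with a log2 ratio of 0.69, where 4.47% of all tested genes were called in either direction and 2.89% as higher. HNF4G (0.83) and CDX2 (0.60) were called higher in WT than in the ΔTM-labelled library, where 7.16% were called in either direction and 4.25% as higher. HNF4G again passed the filter only through WT. Of the 1275 tested genes with a mean FPKM under 2, 5.33% were called higher in WT than in 3NQ. The share was 5.88% for WT against the ΔTM-labelled library. When the libraries were rescaled by median of ratios, the ratio of CDX2 in the latter comparison was 0.57, below the threshold. No tested factor was called between 3NQ and the ΔTM-labelled library, where 3.34% of all tested genes were called. HNF4G came nearest, with a log2 ratio of 0.54, and reached 1.48 with a pseudocount of 0.1, where 6.46% of all tested genes passed the threshold. Only CDX2 was called in WT against 3NQ and only HNF4G in WT against Luc. The difference between these contrasts was not tested.

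**Figure D2:**
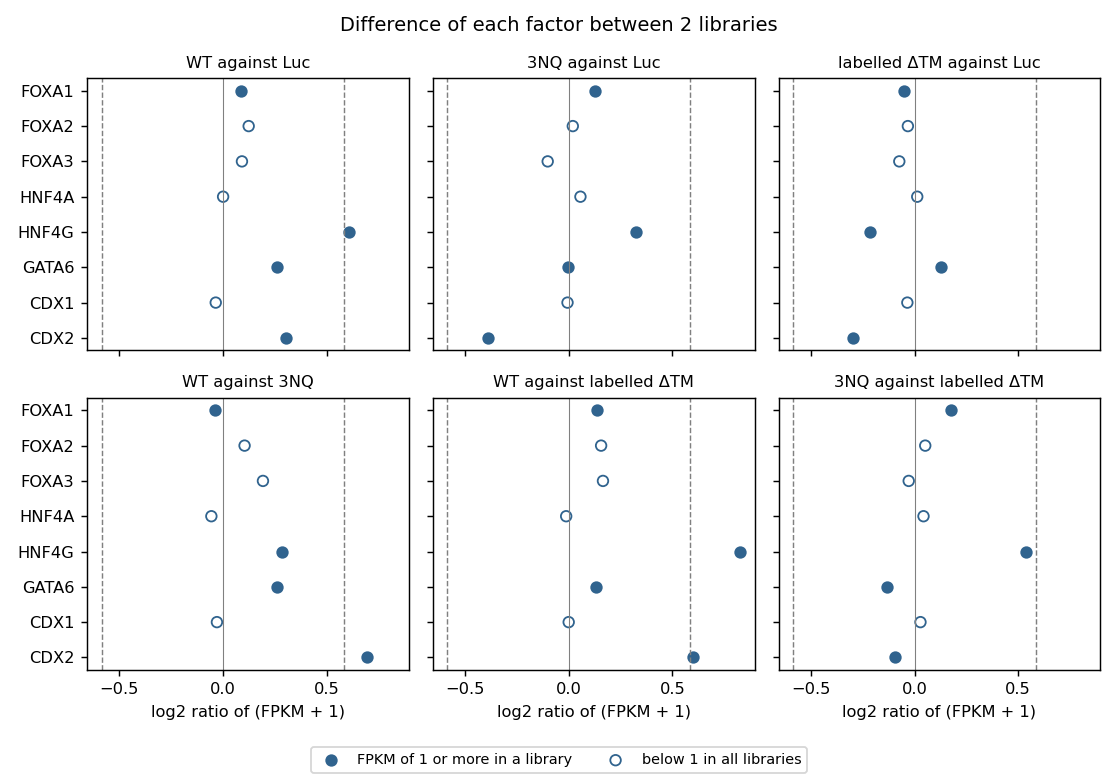
Log2 ratio of FPKM + 1 (x axis) of each factor (y axis) in the 6 comparisons between libraries. Filled points are the 4 factors that reached an FPKM of 1, open points the other factors, and dashed lines mark 1.5-fold. HNF4G passes the line in WT against Luc, CDX2 in WT against 3NQ, and HNF4G and CDX2 pass it in WT against the ΔTM-labelled library.

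Over all 8 factors, the FPKM in WT was above that in Luc for 7, the exception being CDX1. Among these 7, HNF4A was nearly equal in the libraries, at 0.0475 in Luc and 0.0483 with WT. Of the 11769 tested genes, 49.1% were above Luc in WT, as were 49.3% of the 5750 genes below the filter whose values differed between these libraries. The median log2 ratio of the 8 factors was 0.11 with WT, 0.0083 with 3NQ and −0.042 in the ΔTM-labelled library, against −0.0049, −0.038 and −0.060 over all tested genes. Of these 8 genes, 5 were highest in WT. They include FOXA2 and FOXA3, below 1 in every library, and HNF4G, tested only because of WT. The share of all genes that were highest in WT was not taken, so that this count cannot be read as a trait of the factors. These counts describe 4 single libraries and include factors with very few fragments.

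The widest ratio of HNF4G between any libraries, 0.83, was reached by 5.36% of all tested genes and by 12.1% of those with a mean FPKM under 2. HNF4G was tested only because of WT, the higher library of this ratio, so that its place among tested genes is not independent of the filter. For CDX2 (0.69) the shares were 9.14% and 20.8%, for GATA6 (0.26) 61.5% and 81.8%, and for FOXA1 (0.17) 83.2% and 93.0%. FOXA1 and GATA6 therefore varied less over the libraries than most genes.

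**Figure D3:**
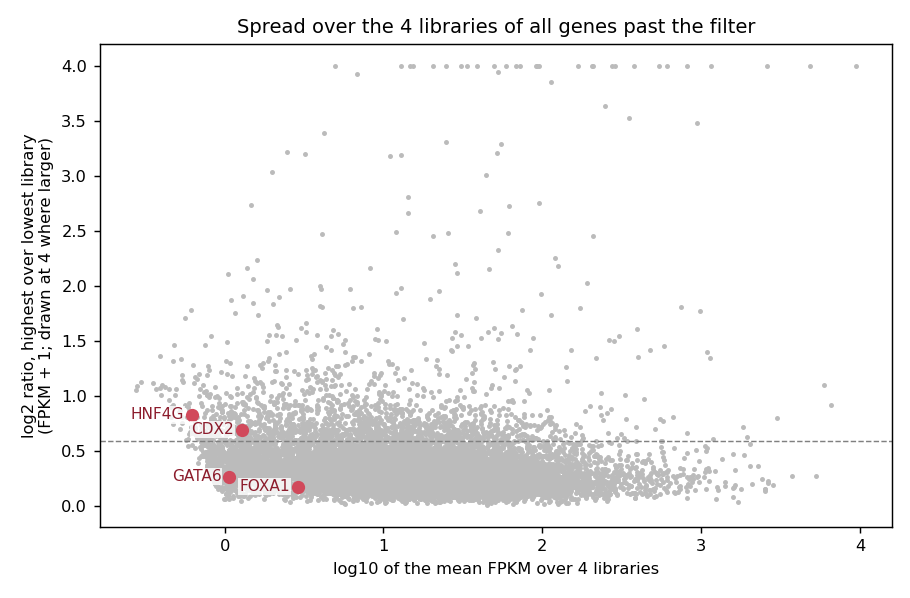
Log2 ratio of the highest to the lowest of the 4 libraries (y axis, FPKM + 1, drawn at 4 where larger) against the log10 of the mean FPKM (x axis) for the 11769 tested genes in grey and the 4 tested factors in red. The dashed line marks 1.5-fold. HNF4G (0.83) and CDX2 (0.69) lie above it, GATA6 (0.26) and FOXA1 (0.17) below it. HNF4G was tested only because of its WT level, the highest of its 4 values.

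By mean FPKM, each factor stood below the leading genes of its own family. CDX2 and FOXA1 ranked in the upper part of theirs, and GATA6 (3 of 6), FOXA3 and FOXA2 near the middle. Of the 6 GATA genes, which bind the same short DNA motif, GATA3 had an FPKM of 53.6 in Luc, 38.3 with WT, 44.9 with 3NQ and 51.2 in the ΔTM-labelled library. GATA2 had 22.9, 17.3, 21.6 and 21.5 in the same order. GATA3 was 29.2 to 57.5 times as high as GATA6. GATA4 and GATA5 are endodermal factors like GATA6, and GATA4 was at most 0.0600 and GATA5 was listed at 0 throughout. Of 48 nuclear receptors, HNF4G ranked 27 and HNF4A 32 by mean FPKM. The highest, NR2F2, an orphan receptor of mesenchymal and venous cell fate, had an FPKM of 329 in Luc, 260 with WT, 289 with 3NQ and 281 in the ΔTM-labelled library. RXRA, the dimer partner of many nuclear receptors, followed with 49.4 to 57.9. Of 44 forkhead genes, FOXA1 ranked 14, FOXA3 20 and FOXA2 21. FOXO1 ranked 1 by mean FPKM through its Luc level of 359, against 1.28 to 1.41 in the other libraries. FOXM1, a forkhead factor of dividing cells, ranked 2 and had an FPKM of 51.5 to 74.0. Of 45 caudal, HOX, PDX1 and GSX genes, CDX2 ranked 6 and CDX1 28, and HOXB7 led with 17.0 to 20.2.

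**Figure D4:**
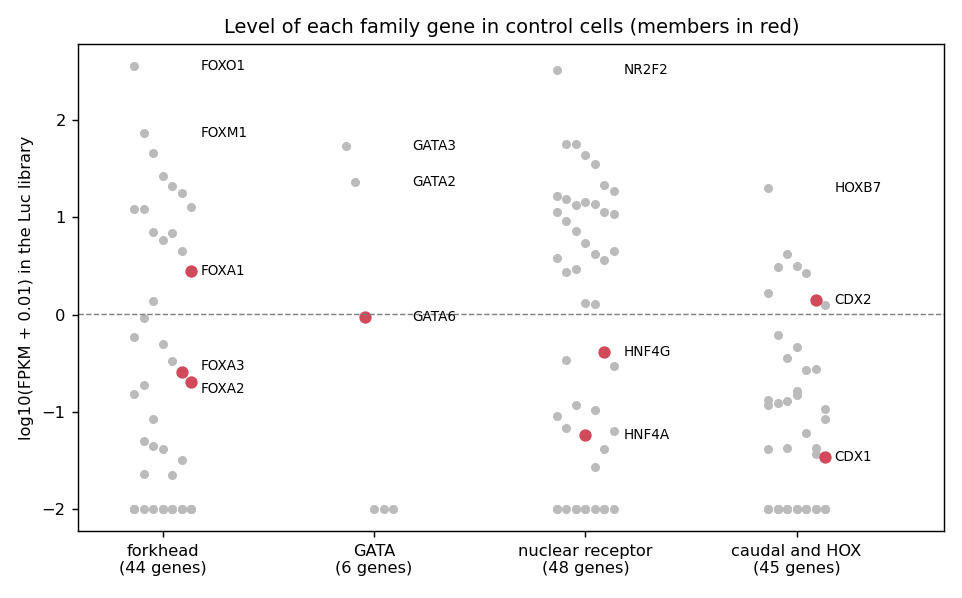
Level in the Luc library, as log10(FPKM + 0.01) (y axis), of each forkhead, GATA, nuclear receptor and caudal or HOX gene (x axis, 1 column of points per family), with the 8 factors in red and a dashed line at an FPKM of 1. GATA6, HNF4G and HNF4A lie below the line and below the leading genes GATA3 and NR2F2 of their families.

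Marker genes of gastric, intestinal, hepatic and simple epithelium, and other factors of the same tissues, were followed with fixed lists. These are lists of markers and not of target genes of the factors. Each is given as the number of genes at an FPKM of at least 1. Of 24 gastric markers, 3 reached it in Luc and WT, 2 in 3NQ and 4 in the ΔTM-labelled library. The highest in Luc were PSCA, a cell surface antigen (28.9), CAPN8, a stomach calpain (12.4), and GAST, which encodes gastrin (1.02). The mucin genes MUC5AC and MUC6 were at most 0.0198 and 0.0165, and TFF1, TFF2, GKN2 and ATP4B were listed at 0 throughout. Of 35 intestinal markers, 2 reached an FPKM of 1 in every library, among them the peptidase gene DPP4 (13.3 to 16.3). VIL1 and CDH17, known targets of CDX2, were at 0 in all libraries, as were GUCY2C and TFF3. None of 27 hepatic markers reached 1. By contrast, 12 of 13 simple epithelium markers did in every library, led by KRT8, KRT18 and KRT19 with 8501, 3684 and 601 in Luc. Most genes that define gastric, intestinal or hepatic epithelium were thus below an FPKM of 1. GAST was below 1 in 3NQ (0.712), and CTSE, an aspartic protease of gastric epithelium named after its values were seen, was above it only in the ΔTM-labelled library (1.35).

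**Figure D5:**
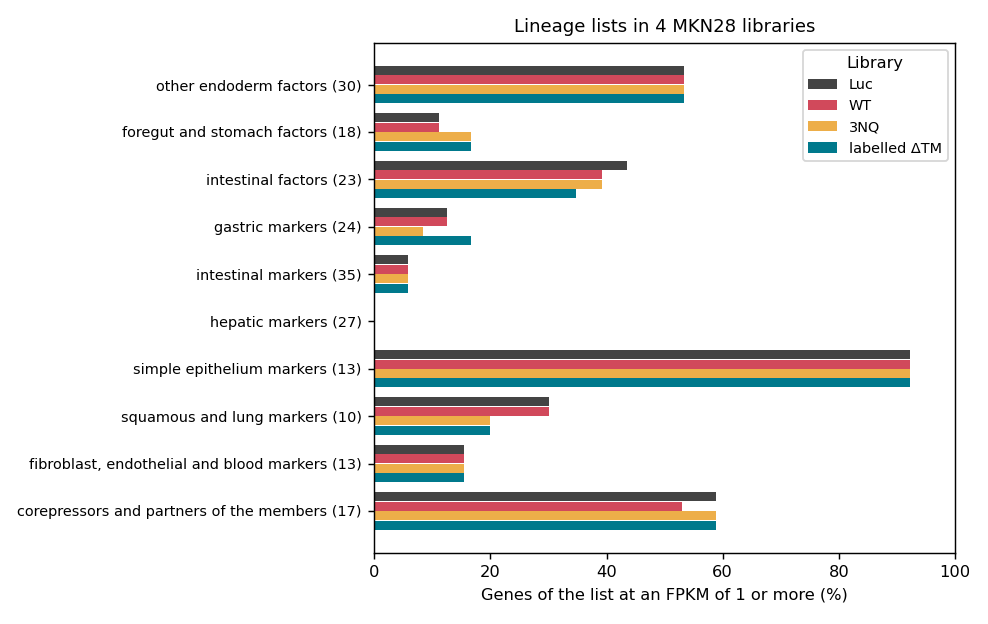
Share of the genes of each list (y axis, number of genes in brackets) at an FPKM of at least 1 (x axis, percent), with 1 bar per library. For gastric markers the numbers behind the bars are 2 to 4 of 24, for intestinal markers 2 of 35, for hepatic markers none of 27 and for simple epithelium markers 12 of 13.

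Of the 4 tested gastric markers, PSCA was called lower in 3NQ than in Luc (log2 ratio −0.65). No other tested gastric marker and none of the 2 tested intestinal markers was called in a comparison to Luc. No hepatic marker passed the filter, so that none could be called. PSCA had a ratio of −0.56 at a pseudocount of 5 and was then no longer called. The median log2 ratio of the 4 tested gastric markers was −0.028 with WT, −0.17 with 3NQ and 0.24 in the ΔTM-labelled library. KRT8 (−0.91) and KRT18 (−0.80) were called lower in WT than in Luc, so that 2 of 12 tested simple epithelium markers were called. Of all tested genes, 6.7% were called in either direction in this comparison. The median log2 ratio of the 12 markers in WT was −0.10.

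Among 18 foregut and stomach factors, 3 were tested. BHLHA15, a basic helix-loop-helix factor of secretory cells such as gastric chief cells, was called higher than Luc in every other library. Its FPKM was 0.753 in Luc, 3.62 with WT, 8.72 with 3NQ and 3.31 in the ΔTM-labelled library, and its log2 ratio was 1.40, 2.47 and 1.30. With a pseudocount of 5, the ratio was 0.58 in WT and 0.53 in the ΔTM-labelled library, just below the threshold. SOX2 and BARX1, which specify stomach, were at most 0.117 and 0.0315, and MEIS1 was called lower in WT (−0.62), a call lost with a pseudocount of 5 (−0.23). Of 23 intestinal factors, 10 were tested. The nuclear receptor NR1I3 was called higher in WT (0.92), PRDM1, a zinc finger repressor, lower in 3NQ (−0.64) and HOXC10, a posterior HOX gene, lower in the ΔTM-labelled library (−0.79), while CDX4, ISX and ATOH1 were listed at 0. The ratios of NR1I3 (0.40), PRDM1 (−0.41) and HOXC10 (−0.40) were below the threshold at a pseudocount of 5. KLF4 and ELF3, factors of differentiating gut epithelium, were the highest of this list in Luc (44.1 and 23.4) and were not called.

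Of 30 other endoderm and epithelial factors, 16 were tested. In WT, ID1, an inhibitor of basic helix-loop-helix factors, was called higher (0.61) and GRHL2, an epithelial grainyhead factor, lower (−0.87). In 3NQ, the forkhead genes FOXP1 (−0.66) and FOXQ1 (−0.63) were called lower, and FOXP1 (−0.92) also in the ΔTM-labelled library. With a pseudocount of 5, the ratio was 0.47 for ID1, −0.40 and −0.54 for FOXP1 and −0.46 for FOXQ1, and these calls were lost, whereas GRHL2 (−0.81) was still called. The median log2 ratio of this list was −0.13, −0.18 and −0.17 in WT, 3NQ and the ΔTM-labelled library. Of 17 corepressors and partners of the factors, 10 were tested and none was called. The chromatin remodeler SMARCA4 and the coactivator NCOA3 led this list in Luc, with 67.0 and 47.0.

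Markers of other cell types were followed in the same way. Of 13 fibroblast, endothelial and blood markers, 2 reached an FPKM of 1 in each library, COL1A1 (12.1 to 15.3) and CD68 (4.44 to 5.84), and the summed FPKM of this list was 17.5 to 20.9. CD3E was listed at 0 and PTPRC, the pan-leukocyte marker, was at most 0.115. Of 10 squamous and lung markers, 3 reached 1 in Luc and WT and 2 in the other libraries. KRT5, a basal keratin, was called lower in 3NQ (−1.50) and in the ΔTM-labelled library (−1.22), where CDX2 was lowest as well. Its FPKM was 3.57 in Luc, 2.28 with WT, 0.615 with 3NQ and 0.955 in the ΔTM-labelled library, and its part in the levels of CDX2 was not tested. The log2 ratio of KRT5 was −0.61 in 3NQ at a pseudocount of 5, and −0.52 and no longer called in the ΔTM-labelled library.

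The genes whose pattern over the 4 libraries was nearest to HNF4G, by the Euclidean distance of mean-centred log2(FPKM + 1), were SLC39A13 (0.041), HIST1H2BK (0.066) and ATF3 (0.072). ATF3, a stress-induced transcription factor, had an FPKM of 12.8 in Luc, 21.4 with WT, 16.3 with 3NQ and 11.3 in the ΔTM-labelled library. Nearest to CDX2 were IFRG15 (0.036), MDM2 (0.049) and SPRR3 (0.058). MDM2, the ubiquitin ligase of p53, had an FPKM of 65.5, 84.6, 51.8 and 55.3 in the same order. These genes were taken from 9041 genes with a mean FPKM of at least 5, over 4 libraries, and none of them stayed among the nearest with a pseudocount of 5. The pseudocount of 1 compresses the fold changes of HNF4G and CDX2 more than those of such higher genes. A short distance is therefore not an equal fold change.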

How the data were processed

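The RNA of 4 MKN28 lines was sequenced by the study as 1 library each. Per its methods, the authors enriched poly(A) RNA, used a TruSeq kit and an Illumina HiSeq sequencer, removed poor reads, aligned them against GRCh37 by Tophat, and obtained FPKM for Ensembl release 72 genes with Cufflinks 2.1.1. Non-coding regions were masked, and multi-read and fragment bias corrections were applied. The deposited FPKM are thus scaled for depth and length by the authors, and no counts, intervals or p-values were used.

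Log2 ratios with a pseudocount of 1, were made over the 11769 genes reaching an FPKM of 1 anywhere, in Python 3.11.15 with numpy 2.4.6 and with pandas 2.3.3, and figures with matplotlib 3.10.9. A 1.5-fold ratio was called. The calling of ratios was tried on simulated data, with changes larger than 1.5-fold placed only in genes with a mean FPKM above 5. All 8 factors were lower, so that the simulation cannot tell how reliable calls at their levels are. For a symbol with several entries, the one with the higher mean FPKM was used, and 3 list genes had no entry used here. Named beside the 8 factors were KIAA1324, the 3 highest genes of a list in Luc, the 3 largest calls of a list in each direction at an FPKM of at least 5, the 3 genes nearest to a factor past 1.5-fold, and genes that define a lineage. Family genes, TTC6, NR1I3, HOXC10, MEIS1, KRT5, MUC5AC, MUC6, SOX2, BARX1, PTPRC, CTSE and FOXO1 were chosen after their values were seen. The factors and lists were chosen with earlier results of these data known, and the lists come from general knowledge. The planned comparison of protein sequences was not made, and some genes of the lists are not reported here by name. Overlapping genes were taken from GENCODE on GRCh37 and promoters from RefSeq on GRCh38.p14. The alternatives were other pseudocounts, rescalings, filters and a 2-fold threshold.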

Additional observations from a re-analysis of the deposited data

How the results depend on the processing

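Calls on the 8 factors rest on low values and on single libraries. With a pseudocount of 5 or a 2-fold threshold, 0 factors were called in WT against Luc, WT against 3NQ and WT against the ΔTM-labelled library. With a pseudocount of 0.1, 2 were called in 3NQ and 1 in the ΔTM-labelled library against Luc, and 1 in 3NQ against the ΔTM-labelled library. After rescaling by upper quartile or by median of ratios, 1 factor was called in WT against the ΔTM-labelled library in place of 2. Without a filter on low values, all counts stayed as reported, and no factor had an FPKM of at least 5. Of 48 ratios of factors, 47 kept their side of the threshold under each rescaling, 44 with a pseudocount of 5 and 41 with 0.1. The 4 that changed side at a pseudocount of 5 were all of the called ratios. Of 39 ratios of other named genes to Luc, 12 lost their call with a pseudocount of 5, 4 gained one with 0.1 and all 39 kept their side under each rescaling. For 10 lists, 19 of 20 counts stayed within 1.5 times with a floor of 0.5 and 15 with a floor of 5. No paired analysis was possible because each group has 1 library.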

Other observations

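Another forkhead gene, FOXO1, a target of insulin and growth factor signaling, had an FPKM of 359 in Luc, 1.41 with WT, 1.34 with 3NQ and 1.28 in the ΔTM-labelled library. It led the forkhead genes in Luc and was singled out after its values were seen. There is 1 Luc library, so that this level has no replicate.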
